A study of Drosophila melanogaster with 185 samples.

Results

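The 10 genes described here, norpA, trp, trpl, inaC, inaD, ninaA, ninaC, rdgA, rdgB and rdgC, carry the fly's light response below the opsins. They were taken by symbol as members of the pathway, and all 10 were found among the 15682 genes counted. RNA was sequenced from mushroom body neurons of Drosophila melanogaster, drawn into a patch pipette from living flies within a short time of aversive odour training. The neurons came from 7 classes, each marked by a GAL4 driver line crossed to UAS-eGFP in a w1118 background. Gamma (NP1131-GAL4) and alpha/beta (c739-GAL4) are Kenyon cells, the intrinsic neurons of this brain centre for odour memory. DAL (G0431-GAL4), V2 (R71D08-GAL4), V3 (CG0239-GAL4), 3-86 (3-86-GAL4) and R27G01 (R27G01-GAL4) are grouped here as output neurons, as the series does. Trained flies had 8 spaced blocks of odour together with 60 V shock, and control flies had the shock and then the odour. Control and trained libraries numbered 5 and 5 in DAL, V2 and V3, 6 and 4 in 3-86, 4 and 4 in R27G01, and 6 and 6 in each Kenyon cell class. The cells pooled per library were more than 100 for Kenyon cells, 12 for V2 and 4 for the remaining output classes. Whole flies of the 7 driver lines gave 24 libraries, whole flies of the UAS-GFP reporter line gave 3, and brains of that line gave 2. Flies and brains carry the control label for training.

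In the fly eye, light-activated rhodopsin switches on a Gq protein, which activates the phospholipase C that norpA encodes. Breakdown of the membrane lipid PIP2 then opens the cation channels TRP and TRPL, and a set of anchoring, recovery and lipid-recycling proteins ends the response and restores the membrane. Mutants of several of these genes have blind or degenerating eyes, and the family is textbook photoreceptor biology. Some of its members are also known from brain. The gene ninaE encodes the main opsin, Rh1, and serves below as the measure of photoreceptor RNA in each library. Levels are CPM, a gene's counts per 1000000 gene counts of its library, and fold changes are on the log2 scale with their SE.

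Total counts per library ran from 1.69 to 22.9 M (M, counts in units of 1000000) in neurons, from 0.932 to 16.2 M in whole flies, and were 1.33 and 2.27 M in brains. Summed neuronal markers (5 genes found of 6) were 1526 to 12484 CPM in control neurons and 91.3 to 370 CPM in driver flies, and 4 Kenyon cell markers summed to 12060 to 22590 CPM in Kenyon cells and 508 to 3276 CPM in output neurons. Summed photoreceptor markers (9 genes) had a median of 25.2 CPM in Kenyon cells (range 6.68 to 231), 1208 CPM in output neurons (25.5 to 15415) and 4094 CPM in driver flies (1634 to 8681). Summed fat body markers followed the same order, with medians of 390, 15738 and 41176 CPM, and so did glial (38.7, 137 and 332 CPM) and muscle markers (7.84, 38.8 and 1448 CPM). The part of RNA from these other cells in the results below was not tested, apart from the fits and ratios that use ninaE. In bulk samples, fewer cells of a type and less RNA per cell cannot be told apart. Kenyon cell libraries also pooled more cells than those of every output class. Differences by cell type and by number of cells pooled therefore cannot be told apart between these groups. Run 2 of 3-86 trained library 2 matched run 1 of 3-86 control library 3 (chi-square of 1.065 a degree of freedom), so both libraries mix RNA under their labels, and an alpha/beta control library was deposited as a pair of samples that may be 2 libraries. Leaving out 3-86 control library 3 changed no member's call in the comparisons of control neurons with flies or among Kenyon and output neurons. The comparisons of single classes with their own flies were not refitted without it.

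The members separated into a group of 4 with RNA in every neuron library and a group of 6 whose RNA was high in some output neurons and near 0 in Kenyon cells. The plot of levels by class shows this for each gene. The group of 4 held norpA, rdgA, rdgB and rdgC, and none of them was at 0 in any of the 72 neuron libraries. The share of all genes found in every neuron library was not counted. The other members were at 0 in 8 of the 72 (ninaC), 15 (inaC), 16 (trpl), 21 (trp), 23 (inaD) and 36 (ninaA).

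**Figure D1:**
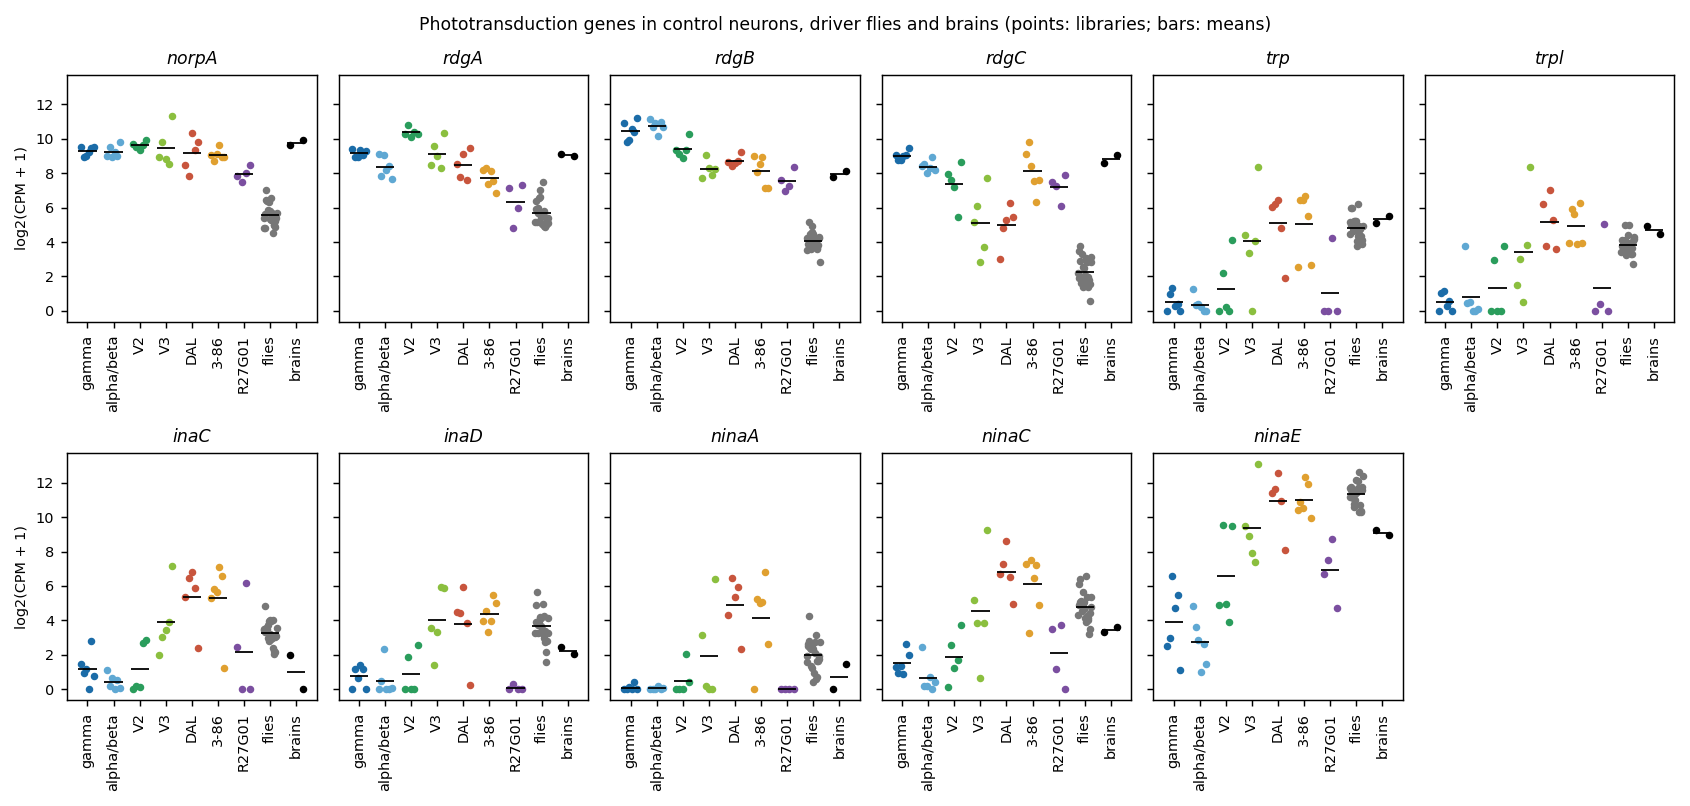
Level of the 10 members and of ninaE as log2(CPM + 1) in control libraries of the 7 neuron classes, whole flies and brains. Points are libraries and bars are means. norpA, rdgA, rdgB and rdgC are above 0 in every neuron library. The other members are near 0 in most gamma and alpha/beta libraries, where ninaE runs from 1.019 to 6.596.

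The phospholipase norpA had 626 ± 134 CPM in Kenyon cells (SD, n = 12 libraries), 661 ± 484 CPM in output neurons (n = 25) and 52.1 ± 25.4 CPM in driver flies (n = 24). In DAL its level was 363, 224, 1277, 656 and 884 CPM. In V2 it was 847, 742, 643, 782 and 984 CPM, and in V3 it was 496, 888, 455, 365 and 2586 CPM. R27G01 had the lowest values, 224, 177, 256 and 353 CPM. The levels ran from 420 to 806 CPM in 3-86 (median 519), from 501 to 738 in gamma (median 646) and from 491 to 915 in alpha/beta (median 554). The highest driver fly library had 128 CPM and the lowest control neuron library 177 CPM. The share of all genes that separate neurons from driver flies in this way was not counted. The brains had 787 and 972 CPM.

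rdgA encodes the eye's diacylglycerol kinase, which returns diacylglycerol from the phospholipase reaction to the lipid cycle. V2 stood highest with 1235, 1754, 1094, 1368 and 1263 CPM. V3 had 356, 776, 520, 311 and 1276 CPM, and DAL had 368, 218, 551, 196 and 714 CPM. R27G01 was lowest, at 138, 27.3, 63.3 and 159 CPM, and overlapped with driver flies, which ran from 27.8 to 178 CPM, as did 3-86. Gamma cells had 497 to 678 CPM (median 578), alpha/beta cells 202 to 562 CPM (median 319) and 3-86 112 to 310 CPM (median 231). The brains had 545 and 508 CPM.

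rdgB encodes a phosphatidylinositol transfer protein that resupplies the membrane with lipid. Its Kenyon cell levels were the highest, at 899 to 2339 CPM in gamma (median 1430) and 1145 to 2235 CPM in alpha/beta (median 1787). In V2 it was 647, 563, 470, 655 and 1219 CPM, in DAL 398, 345, 392, 418 and 595 CPM, and in V3 209, 532, 322, 235 and 308 CPM. Only the highest V2 library reached into the range of Kenyon cells. R27G01 had 193, 124, 152 and 330 CPM and 3-86 had 138 to 517 CPM (median 320). Driver flies had 6.12 to 35.4 CPM, and the lowest control neuron library had 124 CPM.

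rdgC encodes the phosphatase that removes phosphate from rhodopsin. Its level was 435 to 710 CPM in gamma (median 522) and 258 to 483 CPM in alpha/beta (median 325). It was 80.8 to 887 CPM in 3-86 (median 267), and 178, 152, 67.2 and 238 CPM in R27G01. In V2 it was 251, 191, 149, 42.2 and 395 CPM. DAL and V3 were the lowest classes, with 7.03, 26.7, 38.6, 75 and 43.2 CPM in DAL and 34.5, 67.3, 6.17, 12.4 and 212 CPM in V3. Driver flies had 0.459 to 12.9 CPM, which the lowest DAL library and 2 V3 libraries overlapped.

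Averaged over the 7 classes, each against flies of its own driver, 64.6% of 10549 genes tested passed an adjusted p of 0.05 (edgeR quasi-likelihood test, Benjamini-Hochberg over all genes tested), 30.2% higher in neurons and 34.3% lower. Among the 10 members 4 were higher and 4 lower, and the members' median was -0.49 beside 0.01 for all genes tested. A call is therefore common in this comparison, and the sizes carry more than the count. norpA was higher by 3.52 ± 0.18 (adjusted p = 7.02e-25), rdgA by 2.79 ± 0.2 (2.64e-19), rdgB by 5.04 ± 0.19 (4.82e-32) and rdgC by 5.37 ± 0.34 (4.37e-21). Scaling by DESeq2 size factors moved the median of all genes by -0.9 and the share of calls that were higher from 46.8% to 29.7%. With it norpA was still called higher by 2.59, rdgA by 1.87, rdgB by 4.12 and rdgC by 4.43, all well above that shifted median. The 4 members called lower were trp (-2.29 ± 0.53, adjusted p = 0.000147, edgeR), inaD (-2.34 ± 0.52, 8.15e-05), ninaC (-1.22 ± 0.42, 0.00893) and ninaA (limma -1.32 ± 0.45, 0.00739). trpl (-0.79 ± 0.57) did not pass, but did with DESeq2 size factors (-1.67) and without alpha/beta control library 1, V3 control library 5 or R27G01 control library 3 (adjusted p = 0.0268, 0.0415 and 0.00956).

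The same 4 genes were called higher in each of the 7 classes against its own driver's flies, where 18.5% of all genes were called higher in DAL, 17.2% in V2, 15.5% in V3, 21.6% in 3-86, 17.1% in R27G01, 19% in gamma and 16.7% in alpha/beta. norpA ranged from 1.83 ± 0.48 in R27G01 (adjusted p = 0.00182, edgeR) to 4.27 ± 0.46 in 3-86, and rdgA from 1.26 ± 0.52 in R27G01 (0.0495) to 3.89 ± 0.5 in gamma. rdgB ranged from 3.5 ± 0.48 in R27G01 to 6.74 ± 0.55 in alpha/beta, and rdgC from 2.41 ± 0.71 in DAL (adjusted p = 0.00509) to 7.61 ± 0.91 in 3-86. These calls are not independent of each other, since all 7 contrasts share a spread from the same fit. None of them was refitted with other scaling or with libraries left out, and rdgA in R27G01 lay close to the threshold.

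Kenyon cells were the neurons with the least ninaE, 19.2 ± 27.5 CPM in control libraries. Against their own flies, 54.8% of genes were called, 24.7% higher and 30.1% lower, and all 10 members were called, 4 higher and 6 lower. The members' median was -3.9, and that of all genes was -0.16. Of all calls 45.1% were higher, and 32.2% with DESeq2 size factors. rdgB was higher by 6.61 ± 0.38 (adjusted p = 4.44e-22, edgeR), rdgC by 6.67 ± 0.68 (1.47e-12), norpA by 3.45 ± 0.34 (3.83e-13) and rdgA by 2.81 ± 0.36 (1.37e-09). ninaE itself fell by 8.01 ± 0.85 (adjusted p = 2.37e-11).

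The channel gene trp, the main light-gated channel, was at 0 in 4 of 12 Kenyon cell control libraries, and the 12 held 48 counts in all, or 0.422 ± 0.539 CPM. A count of 0 allows a level of up to 0.131 to 0.693 CPM, depending on the library's depth (3 counts, counting error alone). Driver flies had 30 ± 15.6 CPM. Relative to flies trp fell by 6.41 ± 1.09 in Kenyon cells (adjusted p = 1.16e-06, edgeR), and its partner channel trpl by 4.05 ± 1.07 (0.00106). The eye protein kinase C inaC fell by 3.74 ± 0.93 (adjusted p = 0.000517) and the scaffold inaD, which holds the channel, the kinase and the phospholipase together, by 4.36 ± 0.96 (0.000111). ninaC, a myosin with a kinase domain found in the photoreceptor's light-sensing membrane, fell by 4.66 ± 0.81 (adjusted p = 1.99e-06). ninaA, a cyclophilin that Rh1 needs to leave the endoplasmic reticulum, fell by 5.55 ± 1.12 (adjusted p = 3.02e-05), from 8 counts in the 12 Kenyon libraries. All exon bases of ninaA lie under CG15824 on the opposite strand in a later annotation, and whether strand was used in counting is not given in the sources used here, so its values are uncertain.

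Output neurons against their flies gave another pattern for these 6 genes, with 60.8% of all genes called, 30.2% higher and 30.6% lower. Of all calls 49.6% were higher, and 30.5% with DESeq2 size factors. Of the members 4 were called higher and 1, inaD, lower, with a median of 0.88 beside 0.06 for all genes. norpA was higher by 3.54 ± 0.22 (adjusted p = 2.62e-21, edgeR), rdgA by 2.78 ± 0.23 (5.63e-16), rdgB by 4.41 ± 0.21 (3.34e-26) and rdgC by 4.85 ± 0.39 (1.93e-16). inaD fell by 1.53 ± 0.62 (adjusted p = 0.0281), a call that was lost without DAL fly library 3, R27G01 fly library 2 or V3 fly library 4 (adjusted p = 0.0503, 0.0662 and 0.0578). The values of trp (-0.64 ± 0.63), trpl (0.52 ± 0.7), inaC (1.24 ± 0.62) and ninaC (0.15 ± 0.52) did not pass the test. Without R27G01 control library 3, trp was called lower (-2.24, adjusted p = 0.00329). For ninaA, where R27G01 controls hold no count, limma gave -0.51 ± 0.54 (adjusted p = 0.408).

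**Figure D2:**
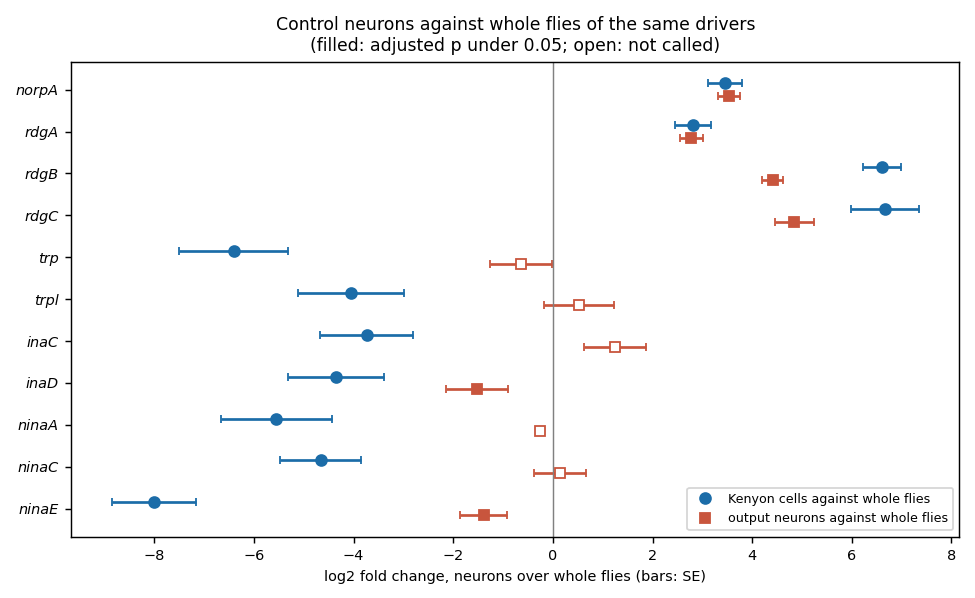
Log2 fold change (± SE) of each member and ninaE in Kenyon cells (circles) and output neurons (squares) against whole flies of the same drivers. Filled symbols passed an adjusted p of 0.05, and ninaA in output neurons has no SE. norpA, rdgA, rdgB and rdgC lie above 0 in both, and the other members lie below 0 in Kenyon cells and near 0 or on either side of it in output neurons.

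The single libraries show how uneven the output neurons were. In DAL trp had 64.2, 73.5, 85.9, 27.4 and 2.77 CPM, and in V3 it had 20.4, 9.19, 0, 15.4 and 329 CPM. In V2 it had 0, 3.51, 0.148, 0 and 16.2 CPM, and in R27G01 it was 0 in all but library 3, which had 17.6 CPM. ninaE moved with it, with 2672, 3200, 6004, 1933 and 269 CPM in DAL and 710, 474, 238, 170 and 8679 CPM in V3. The DAL library with the lowest trp was the lowest for ninaE, and the V3 library with the highest trp was the highest. In V2 ninaE was 28.1, 740, 30.4, 13.9 and 711 CPM, and in R27G01 it was 101, 182, 426 and 25.3 CPM. In 3-86 trp ran from 4.96 to 102 CPM (median 65.8) and ninaE from 994 to 5212 CPM (median 1690).

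ninaC showed the same libraries at the top. It had 103, 155, 397, 89 and 29.5 CPM in DAL, 35.2, 13.4, 0.561, 13.6 and 608 CPM in V3, and 8.45 to 178 CPM in 3-86 (median 118). It was 0.0769, 4.81, 1.33, 2.26 and 12.2 CPM in V2 and 10.3, 1.26, 12.1 and 0 CPM in R27G01. Kenyon cells had 0 to 5.18 CPM, against 8.22 to 95.3 CPM in driver flies. trpl ranged from 0 to 331 CPM over the output neurons and inaC from 0 to 144 CPM, each highest in V3 library 5. inaD ranged from 0 to 61.2 CPM, with its highest value in DAL library 3. ninaA was 0 in all 4 R27G01 control libraries, at least 103-fold lower than the mean of 9.43 CPM in R27G01 flies (3 counts over the group), and reached 113 CPM in a 3-86 library.

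3-86 was the class in which further members were called higher than in its flies: inaC by 4.13 ± 1.47 (adjusted p = 0.0202, edgeR), ninaA by 4.81 ± 1.69 (0.0191) and ninaC by 2.96 ± 1.17 (0.0382). The summed photoreceptor markers of 3-86 controls were 2107 to 10219 CPM, and those of its flies 1634 to 2124 CPM. ninaE itself was higher by 0.9 ± 0.99 and was not called (adjusted p = 0.498, edgeR). Per 100 ninaE counts, inaC had a median of 2.75 in 3-86 controls and 0.284 in 3-86 flies. For ninaA these were 1.3 and 0.0894, and for ninaC 3.35 and 0.914. The part of photoreceptor RNA in these calls was not tested.

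The contrasts of Kenyon cells and of output neurons with flies differed for 6 members, where 16.3% of all genes differed, 6.1% higher and 10.2% lower (37.4% of calls higher, 59.5% in limma). trp (-5.76 ± 1.21, adjusted p = 0.000318 in edgeR), trpl (-4.57 ± 1.27, 0.00728), inaC (-4.98 ± 1.12, 0.000733) and ninaC (-4.81 ± 0.95, 0.000121) were further below flies in Kenyon cells. rdgB (2.2 ± 0.33, adjusted p = 7.38e-07) and rdgC (1.82 ± 0.6, 0.0266) were further above them. The rdgC difference was lost without alpha/beta fly library 2 (1.58, adjusted p = 0.0918). For norpA the difference was -0.09 ± 0.34 and for rdgA 0.03 ± 0.37, and neither passed the test. inaD (-2.82 ± 1.16, adjusted p = 0.0913) passed without alpha/beta control library 3 (-4.3, 0.00434). Without R27G01 control library 3, which leaves that class with no trp count, trp has no usable edgeR test here or among neurons alone. ninaA has none in either comparison with all libraries, since R27G01 controls hold no count of it, so the number of members that differed leaves ninaA out.

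Among the neurons alone, 31.8% of 9168 genes differed between Kenyon cells and output neurons, 17.5% higher and 14.3% lower (55.1% of calls higher, 71.4% in limma). Of the members 2 were higher and 4 lower in edgeR, not counting ninaA. rdgB was higher in Kenyon cells by 2.36 ± 0.2 (adjusted p = 1.37e-12, edgeR) and rdgC by 1.93 ± 0.33 (1.27e-05). trp fell by 5.51 ± 1.19 (adjusted p = 0.000268), trpl by 4.16 ± 1.17 (0.00452), inaC by 4.57 ± 1.03 (0.000443), ninaC by 4.42 ± 0.86 (8.47e-05) and ninaE by 5.77 ± 0.89 (5.76e-06). norpA (0.25 ± 0.22) and rdgA (0.44 ± 0.22) did not pass the test, and neither did inaD (-2.41 ± 1.04, adjusted p = 0.0718), which passed at -4.6 (adjusted p = 2.86e-05) with the trained libraries added and without alpha/beta control library 3 (-4.03, 0.00487) or R27G01 control library 1 (-2.62, 0.0495). ninaA, tested in limma, fell by 3.12 ± 0.74 (adjusted p = 0.00077).

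With the level of ninaE as a covariate, none of the 4 lower calls remained. trp changed to 2.14, trpl to 3.41, inaC to -1.09 and ninaC to -0.37, none of them called. rdgB (2.13 ± 0.39, adjusted p = 0.000406 in edgeR) and rdgC (2.75 ± 0.68, 0.00751) were called as before. That fit called 723 genes, against 2912 without the covariate.

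The level depended on the class for 9 of the 10 members (edgeR F test on the 7 control groups), where 34.9% of all genes passed. norpA was the exception (adjusted p = 0.0749), although it passed without either of DAL libraries 1 and 2 or V3 libraries 3 and 4 (0.0483, 0.0344, 0.0438 and 0.0434). For rdgB both Kenyon cell classes stood above each of the 5 output classes, the nearest being V2 (V2 minus gamma -1.45 ± 0.37, adjusted p = 0.0369, and V2 minus alpha/beta -1.72 ± 0.37, 0.00503, edgeR). Few genes separated V2 from Kenyon cells, with 1.3% of all genes called against gamma and 3.41% against alpha/beta. For the other output classes these shares were 15% and 17.2% (DAL), 11% and 12.2% (V3), 24.8% and 25.8% (3-86), and 21.6% and 22.7% (R27G01). For rdgA, V2 stood above R27G01 by 3.47 ± 0.49 (adjusted p = 2.71e-05, edgeR), above 3-86 by 2.33 ± 0.4 (0.000179), above alpha/beta by 1.5 ± 0.39 (0.0213) and above DAL (DAL minus V2 -1.46 ± 0.41, 0.0325). In those pairs 13.2%, 15%, 3.41% and 5.37% of all genes were called. For rdgC, DAL minus gamma was -3.79 ± 0.69 (adjusted p = 0.000117, edgeR) and V3 minus gamma -3.27 ± 0.67 (0.000996). norpA in R27G01 was lower than in gamma (-1.3 ± 0.42, adjusted p = 0.0232) and in alpha/beta (-1.37 ± 0.42, 0.016). No member was called between gamma and alpha/beta cells, where 0.0218% of all genes were.

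Which members have RNA in neurons beyond what comes with ninaE was asked with ratios inside each library, which do not depend on scaling. ninaE itself changed by -3.28 ± 0.4 in control neurons against driver flies (adjusted p = 6.8e-10, edgeR), where the median of all genes was 0.01. A gene whose level did not change would therefore also rise in this ratio. The share of all genes that rose, or lay above all flies, was not counted. Driver flies had a median of 1.8 norpA, 1.98 rdgA, 0.694 rdgB and 0.119 rdgC counts per 100 ninaE counts. Control Kenyon cells had medians of 7660, 6970, 23000 and 5280, and output neurons 69.9, 21.3, 37.7 and 16. Every one of the 37 control neuron libraries lay above all 24 driver fly libraries for norpA and rdgB, 36 did for rdgC and 34 for rdgA. The 3 reporter fly libraries, which entered no such test, had higher ratios than most driver flies, at 8.59 to 12.6 for norpA, 11.2 to 15.8 for rdgA, 2.85 to 3.9 for rdgB and 0.488 to 0.783 for rdgC. Above all 3 of them lay 36 control neuron libraries for norpA, 35 each for rdgB and rdgC and 26 for rdgA, and those that did not for rdgA were in DAL, V3, 3-86 and R27G01. On rdgA, output neurons thus overlapped with the reporter flies. On the log2 scale the ratio was higher in neurons than in driver flies by 7.82 for norpA, 7.14 for rdgA, 9.37 for rdgB and 9.63 for rdgC. Each had an adjusted p of 2.5e-05 in a 2-sided permutation test with 100000 resamples over the 10 members, and the unadjusted p, 1e-05, is the smallest these resamples can give. The resamples shuffled libraries between neurons and flies without regard to class or driver. Ratios differed by class, with a mean log2 ratio for norpA of 6.24 in Kenyon cells and 0.0 in output neurons. Libraries of a class are thus not independent draws, and the p-values of this test may be too small.

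trp had a median of 1.13 counts per 100 ninaE counts in driver flies, 1.17 in Kenyon cells and 1.42 in output neurons, a log2 difference of 0.34 (adjusted p = 0.477, permutation test). The other members of that group had ratios above those of driver flies: inaC by 2.68 (adjusted p = 6e-05, 29 of 37 neuron libraries above all flies), ninaC by 2.09 (8.33e-05, 23), ninaA by 2 (0.00261, 16), trpl by 1.5 (0.00204, 23) and inaD by 1.14 (0.0405, 11). Against the 3 reporter fly libraries these ratios lay on either side, with 9 (inaC) to 25 (ninaA) of the 37 neuron libraries below all 3 and 10 (ninaA) to 25 (inaC) above all 3. For trpl, inaD and ninaA this did not pass in output neurons alone (0.69, 0.12 and 1.08, adjusted p = 0.222, 0.841 and 0.222). For trp it passed in Kenyon cells alone, by 2.07 (adjusted p = 0.00519, permutation test). There trp counts were near 0, and ninaE counts ran from 5 to 1043. Because 0.5 was added to both counts, a library with 0 counts of a member could lie above all flies. ninaA had a median of 0.0 counts per 100 ninaE counts in Kenyon cells, yet all 12 Kenyon libraries lay above all their flies. With a pseudocount of 1, the differences over all control neurons were 2.45 for ninaA, 1.76 for trpl and 1.45 for inaD. Ratios of members near 0 are thus uncertain. With the pseudocount of 0.5, the rises over all control neurons in this group were 2.68 at most. They are differences of means over libraries, whereas the -3.28 of ninaE came from an edgeR fit that weighted classes alike. The part of the fall of ninaE in these rises was not tested.

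**Figure D3:**
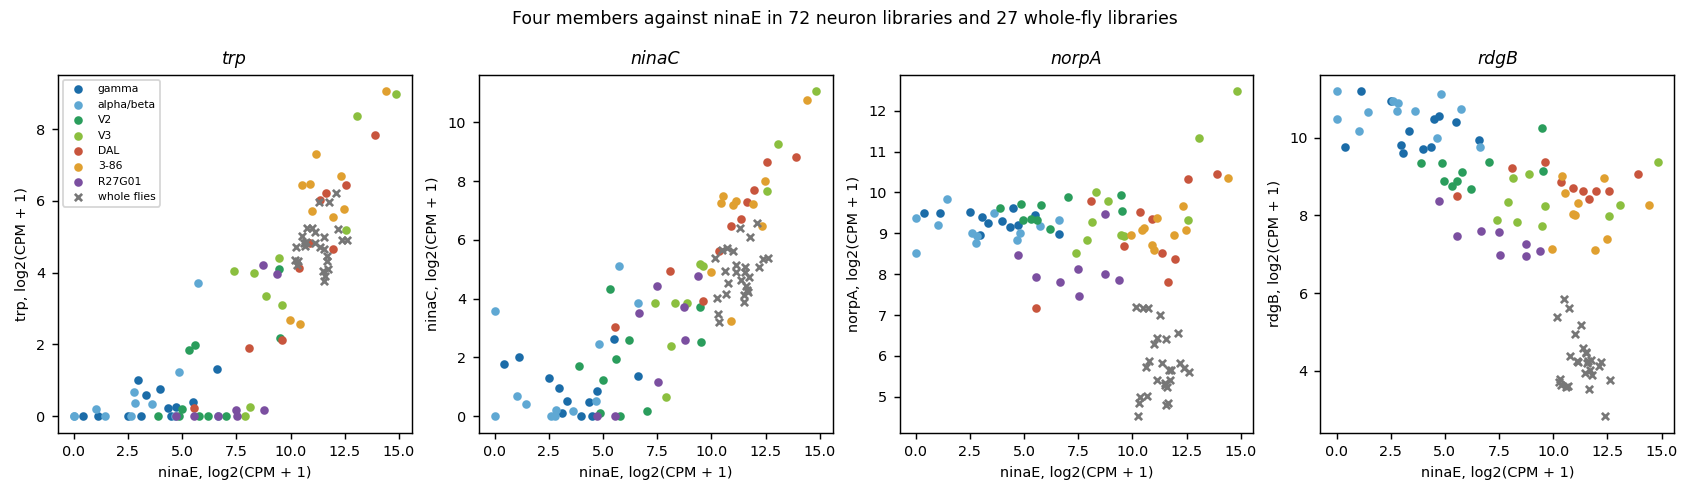
Level of trp, ninaC, norpA and rdgB against that of ninaE, all as log2(CPM + 1), in 72 neuron and 27 whole fly libraries (points). trp and ninaC rise with ninaE over the neuron libraries (r = 0.85 each), whereas norpA (0.2) and rdgB (-0.64) do not.

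In 2 Kenyon cell libraries no ninaE read was counted. Alpha/beta trained library 2 had 365 CPM of norpA, 176 of rdgA, 1436 of rdgB and 214 of rdgC, and 0 counts of the other 6 members. Alpha/beta trained library 3 had 667 CPM of norpA, 351 of rdgA, 2363 of rdgB and 289 of rdgC, with 10.8 CPM of ninaC, 0.556 CPM of inaC and 0 counts of trp, trpl, inaD and ninaA. Among the 6 trained alpha/beta libraries, library 2 had the lowest norpA level and library 3 the highest norpA and rdgB levels.

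Within a class, over control and trained libraries together, the log2 levels of trp, trpl, inaC and inaD correlated positively with ninaE in 7 of 7 classes, and those of ninaA and ninaC in 6 of 7. norpA was positive in 6 of 7 as well, rdgA in 5, rdgC in 4 and rdgB in 3, so the sign alone does not separate the groups. Of 70 relations tested, 10 passed by r after adjustment, all in DAL, V2 or V3 and none for norpA, rdgA, rdgB or rdgC (permutation tests). By rho, ninaC passed in 2 classes, trp, trpl, inaC and inaD in 1 each, and ninaA in 0. The trpl relation that passed by rho was in alpha/beta (rho 0.86, permutation p = 0.0008, adjusted 0.0112), and in V2 trpl did not pass by rho (adjusted p = 0.111). In DAL r was 0.95 for trp (rho 0.93, n = 10 libraries, permutation p = 2e-05, adjusted 0.0014) and 0.93 for ninaC (rho 0.99, permutation p = 5e-05, adjusted 0.00163). Without the 2 libraries farthest from the median of ninaE these were 0.91 and 0.95. In V2 r was 0.87 for trpl, which was 0.46 without them. In V3 r was 0.85 for trp and 0.95 for ninaC, and 0.55 and 0.84 without those libraries. norpA in V3 had r = 0.81 (rho 0.71, n = 10, permutation p = 0.00855, adjusted 0.0514), which was 0.16 without them, and in 3-86 0.77 (adjusted p = 0.0674, permutation test). With Arr2 in place of ninaE, norpA in 3-86 passed (r = 0.82, rho 0.7, n = 10, permutation p = 0.0075, adjusted 0.0404), and r was 0.59 without the 2 libraries farthest from the median. rdgB had r from -0.81 to 0.5.

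Across all 72 neuron libraries, trp, trpl, inaC, inaD, ninaA and ninaC correlated with each other at 0.73 to 0.89, as a description over libraries that share class and depth. norpA and rdgA were the likest to each other of the remaining genes, at 0.61. rdgB correlated with rdgC and rdgA at 0.48 each and with the 6 eye-pattern genes at -0.35 to -0.44. Among 6206 genes with at least 10 CPM on average, the 3 nearest to trp were ninaC (0.89), trpl (0.89) and Pdh (0.86), and those nearest to trpl included chp (0.87), a photoreceptor surface protein. Those nearest to inaD were Cpn (0.87), a calcium-binding protein of photoreceptors, rtp (0.82), another photoreceptor protein, and CG1561 (0.81). Nearest to inaC were trp (0.83), chp (0.82) and Gbeta76C (0.81), the eye G protein beta subunit, and nearest to ninaA were trp (0.84), CG4842 (0.81) and inaC (0.81). ninaC was nearest to trp (0.89), chp (0.88) and trpl (0.87).

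The 4 genes present in every library had other neighbours. Nearest to rdgB were Rbp (0.89), which encodes a presynaptic active zone protein, mub (0.88), a marker of Kenyon cells, and dlg1 (0.88), a synaptic scaffold. Nearest to norpA after rdgA were Cam (0.6), calmodulin, and Gdh (0.58), glutamate dehydrogenase, and nearest to rdgA were tou (0.73), Cam (0.71) and CG42540 (0.7). Nearest to rdgC were CG8641 (0.75), CR43497 (0.75) and Bx (0.71).

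**Figure D4:**
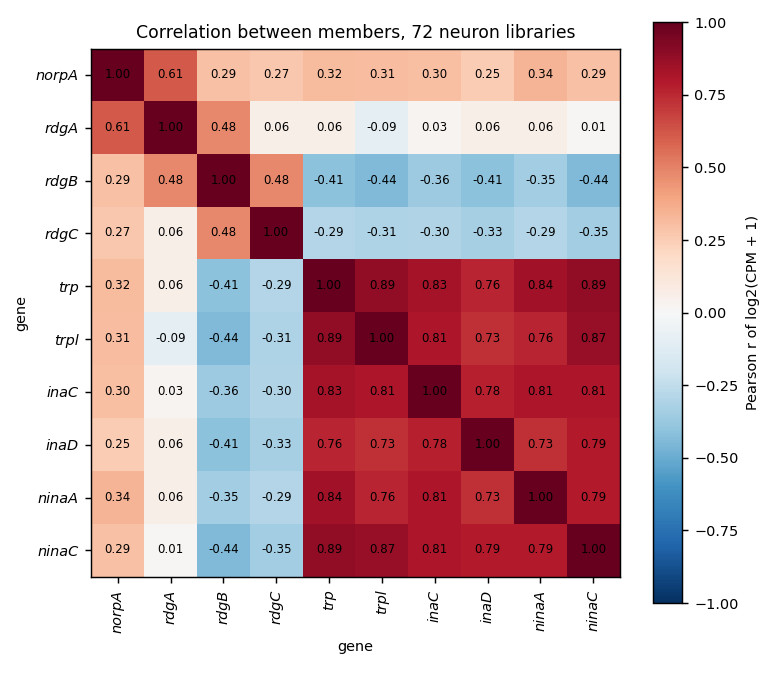
Pearson r of log2(CPM + 1) between members over the 72 neuron libraries. trp, trpl, inaC, inaD, ninaA and ninaC form a block of 0.73 to 0.89, and rdgB is negatively correlated with all 6.

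Other genes of the pathway were also called in both directions. Of 23 listed genes 22 were in the files and 20 were tested against flies, and 9 were higher and 7 lower in the average over control neurons, with a median of 0.07 beside 0.01 for all genes. Of all genes 30.2% were higher and 34.3% lower there, so the share lower was near that background. Galpha49B, the Gq alpha subunit upstream of norpA, was higher by 2.35 ± 0.16 (adjusted p = 5.81e-20, edgeR), at 1868 ± 578 CPM in Kenyon cells, 869 ± 454 in output neurons and 192 ± 59.9 in driver flies. Cam was higher by 2.22 ± 0.1 (adjusted p = 7.78e-28), the receptor kinase Gprk1 by 2.27 ± 0.15 (6.61e-20), CdsA, which makes CDP-diacylglycerol after the rdgA step, by 2.43 ± 0.18 (4.4e-18), and inaE, a diacylglycerol lipase, by 2.12 ± 0.28 (1.14e-09).

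The eye's own beta subunit and the arrestins, which end rhodopsin's activity, were low in Kenyon cells. In Kenyon cells against flies, where 7 of the 20 were higher and 9 lower (24.7% and 30.1% of all genes), Arr2 fell by 6.63 ± 0.77 (adjusted p = 3.22e-10, edgeR) and Arr1 by 4.9 ± 0.77 (4.06e-07). In output neurons against flies 10 were higher and 3 lower (30.2% and 30.6% of all genes). Between Kenyon cells and output neurons 5 of 19 were higher and 6 lower (17.5% and 14.3% of all genes). There Galpha49B was higher by 1.36 ± 0.2 (adjusted p = 5.28e-07), and Gbeta76C fell by 6.23 ± 0.96 (1.37e-06), from 57.6 ± 67.5 CPM in output neurons to 0.632 ± 1.01 CPM in Kenyon cells.

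Relatives of the members were higher in neurons for 8 and lower for 3 of 11 tested, where 30.2% and 34.3% of all genes were. Pkc53E, a conventional protein kinase C like inaC, was higher by 6.46 ± 0.27 (adjusted p = 1.79e-29, edgeR) and had 2895 ± 441 CPM in Kenyon cells, where inaC had 1.07 ± 1.6 CPM. Pkc98E was higher by 3.76 ± 0.18 (adjusted p = 6.33e-27) and Plc21C, a phospholipase C of norpA's family, by 4.27 ± 0.25 (1.22e-22). Cyp1, a cyclophilin like ninaA, fell by 2.09 ± 0.09 (adjusted p = 2.47e-29). trpgamma, the relative of trp and trpl, is also among the listed pathway genes. It was too low to test, with 11 counts in the 12 Kenyon cell control libraries and 12 in the 25 of output neurons. Each gene's level is set beside its own level elsewhere, since levels of different genes also depend on length.

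Whole brains held the same 4 genes. Against reporter flies of the same line 75.8% of 9983 genes were called, 28.2% higher and 47.7% lower, with a median of -1.07. norpA was higher by 2.88 ± 0.21 (adjusted p = 1.77e-06, edgeR), rdgA by 1.81 ± 0.19 (1.76e-05), rdgB by 2.66 ± 0.25 (1.03e-05) and rdgC by 5.98 ± 0.35 (4.99e-07). In CPM, rdgC was 379 and 525 in brains and 5.68, 8.99 and 11.4 in these flies. inaC fell by 3.75 ± 0.94, ninaA by 3.8 ± 0.81, ninaC by 1.94 ± 0.38 and inaD by 1.53 ± 0.54, the last of which was lost in 4 of the 5 fits that left out a library. trp (0.87 ± 0.37, adjusted p = 0.0535) and trpl (0.68 ± 0.37, 0.12) did not pass the test, although trp passed without brain library 1 (1.12, adjusted p = 0.00502) and with DESeq2 size factors (1.02, 0.0256). trp was 33.7 and 44.4 CPM in brains and 19.5 to 31.3 CPM in these flies, while ninaE fell by 1.13 ± 0.22, to 612 and 491 CPM.

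Among the 27 whole fly libraries of 8 genotypes, 31.5% of 9521 genes differed by genotype, and so did 7 of the members (edgeR F test). ninaE, the reference of the ratios above, differed as well (adjusted p = 1.55e-06, edgeR F test). Reporter flies had 144 to 146 CPM of norpA and 163 to 192 CPM of rdgA, above the driver flies' means of 52.1 and 57.4 CPM. rdgB (adjusted p = 0.684), rdgC (0.136) and inaD (0.0548) did not pass. The number of members called ran from 1 to 8 when single fly libraries were left out.

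No member passed the test for training in any class. In edgeR fits of 5548 (R27G01) to 7840 genes (gamma), 0% of genes passed an adjusted p of 0.05 in each class, although 100 (V3) to 440 (gamma) had an unadjusted p under 0.05. DESeq2 called 5 genes in DAL, 32 in V2, 3 in V3, 20 in 3-86, 37 in R27G01, 5 in gamma and 0 in alpha/beta, none of them a member. Between 4 and 10 members were tested per class, and norpA, rdgA, rdgB and rdgC were tested in all. In edgeR, 5 values had an unadjusted p under 0.05, and they came from 3-86 and gamma.

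In 3-86, ninaC was 2.64 ± 0.78 higher in trained libraries (adjusted p = 0.999, edgeR), trp 2 ± 0.95 and inaD 2.67 ± 1.22. ninaC was 254, 145, 159 and 1722 CPM in trained libraries and 8.45 to 178 CPM in control libraries, so the groups overlapped. ninaE was 5657, 2066, 2281 and 21830 CPM in the same trained libraries, 1.76 ± 0.64 higher. With ninaE as a covariate the values were 0.55 for ninaC, 0.65 for trp and -0.71 for inaD. Without the 2 mixed 3-86 libraries they were 3.15 ± 0.88, 2.45 ± 1.1 and 2.85 ± 1.39, none of them called (lowest adjusted p = 0.683, edgeR).

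In gamma cells rdgB was -0.81 ± 0.31 (adjusted p = 0.796, edgeR) and ninaC -2.16 ± 0.96. rdgB was 872, 1155, 860, 782, 1439 and 831 CPM after training (median 866) and 899 to 2339 CPM (median 1430) in controls, and the groups overlapped. With ninaE as a covariate rdgB was at -0.8. norpA was 573 to 791 CPM after training in gamma (median 654) and 501 to 738 CPM in controls. In alpha/beta, rdgB was 862 to 2363 CPM after training (median 1548) and 1145 to 2235 CPM in controls.

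**Figure D5:**
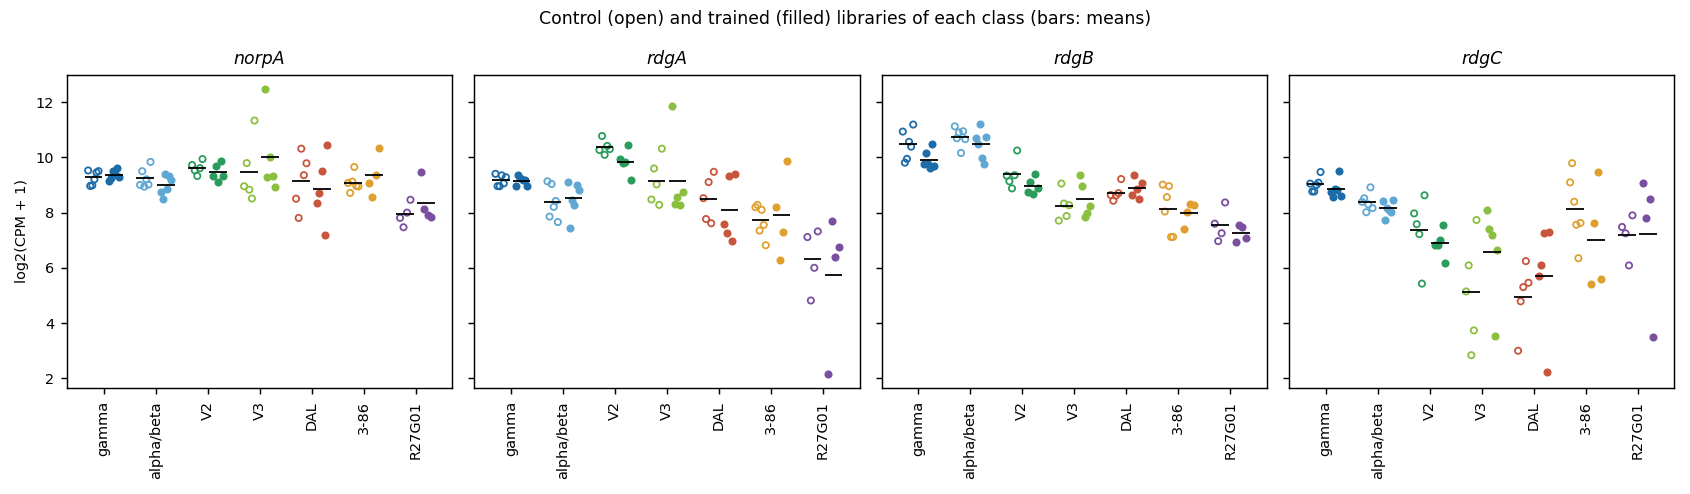
Level of norpA, rdgA, rdgB and rdgC as log2(CPM + 1) in control (open) and trained (filled) libraries of each neuron class, 1 point a library. The groups overlap for every gene in every class, and no difference passed the test.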

How the data were processed

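The authors deposited gene counts, unnormalized, for 185 samples, and runs of a library were summed to give 101 libraries. The submitters' processing notes name cutadapt, Bowtie, Bowtie2, TopHat2, HTSeq, DESeq2 1.4 and the BDGP5 build. The rule for shared reads and the use of strand are not given in the sources used here. RNA was amplified by a SMARTer kit, per the labels' protocols, and amplified reads are not independent molecules, so floors cover counting error alone. Runs agreed within sampling noise in 81 of 84 libraries with 2 runs (0.976 to 1.044 chi-square units a degree of freedom, using genes of 20 or more reads).

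Groups followed the labels. Replicates are libraries, and the labels do not say that they came from separate animals, so the p-values cover library-to-library spread alone, which may be technical. Genes passing filterByExpr were tested in edgeR 4.0.16 (R 4.3.3) by its robust quasi-likelihood method after TMM scaling, with 2-sided tests and Benjamini-Hochberg adjustment over all genes tested at 0.05. Control libraries of the 7 classes and flies of the 7 drivers shared a fit (common coefficient of variation 1.054), and so did the 7 control groups alone (1.274). Each training test was fitted within its class. Where a whole group holds 0 counts, edgeR's test of an average over groups is void and limma 3.58.1 on log2 CPM was used, a choice made after the data were seen. DESeq2 1.42.0, other scaling, no filter, left-out libraries and ninaE as a covariate were the alternatives. On simulated counts, the fit of Kenyon cells against flies recovered 34.3% of genes changed 4-fold and 80.3% of those changed 16-fold, and the training fit recovered 85.1% at 4-fold in gamma and 7.46% in DAL. Ratios to ninaE used a pseudocount of 0.5, and permutation tests ran in numpy 2.4.6, with ranks from scipy 1.17.1. Correlations used log2(CPM + 1) over the libraries named, and exact permutation tests were used below 10 libraries.

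The members and lists were chosen with earlier results of these data known. Named genes are the members, ninaE, genes of the marker, pathway and paralog lists among the 5 smallest p of a comparison, and the 3 genes most correlated with each member. Sequences and coordinates are not given, since the reference used was of another build than the counts.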

Additional observations from a re-analysis of the deposited data

Results flagged for a closer look

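Of 169 sets of a member's values in a group of 4 to 10 libraries, 23 held a library far from all the others. The rule flags about 1 in 20 sets of normally spread values, a rate that does not hold for sets near 0. The share flagged over all genes was not counted. All but 2 of the 23 concern the 6 members that are near 0 in Kenyon cells. In alpha/beta, control library 1 stood high for trp (1.36 CPM), trpl (12.7 CPM) and ninaC (4.55 CPM), control library 3 for inaD (4.09 CPM) and control library 4 for ninaA (0.158 CPM). Trained alpha/beta library 6 stood high for trp (12.1 CPM) and ninaA (1.57 CPM). In gamma, ninaA was high in control library 5 (0.324 CPM), trpl in trained library 5 (1.21 CPM) and ninaC in trained library 3 (2.43 CPM). Several of these values rest on a few reads.

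In R27G01, control library 3 stood high for trp (17.6 CPM, with 0 in the other 3) and trpl (31.5 CPM), and control library 2 for inaD (0.211 CPM). Trained R27G01 library 4 stood high for trp (14.7 CPM) and ninaA (7.64 CPM), and trained library 2 for inaD (59.8 CPM). In V2, ninaA was high in control library 4 (3.11 CPM) and trained library 4 (1.32 CPM). Control library 6 of 3-86 stood low for inaC, at 1.32 CPM where the others had 39.1 to 138 CPM. Among whole flies, DAL fly library 3 was high for inaC (27.2 CPM) and NP1131 fly library 2 for trpl (20.3 CPM).

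Of the 4 genes found in every neuron library, V3 trained library 1 stood high for rdgA, at 3756 CPM where the other trained V3 libraries had 313 to 425 CPM, and gamma trained library 5 for rdgC, at 724 CPM where the others had 382 to 464 CPM. The contrasts with flies differed between Kenyon cells and output neurons, tested as the difference itself, for trp (-5.76), trpl (-4.57), inaC (-4.98), ninaC (-4.81), rdgB (2.2) and rdgC (1.82).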

How the results depend on the processing

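norpA, rdgA, rdgB and rdgC were called higher than flies under every alternative run for control neurons, Kenyon cells and output neurons, including each of the 61 fits that left out a library. With DESeq2 size factors the all-gene median moved by -0.9 (-0.81 in Kenyon cells, -0.92 in output neurons), and the genes called in output neurons were 2081 higher and 4753 lower, against 3184 and 3231. Members called lower in output neurons against flies numbered 1, but 2 with DESeq2 size factors, 3 in DESeq2, 2 in limma and 0 to 2 without single libraries. With ninaE as a covariate, Kenyon cells against output neurons had 0 members lower in place of 4, with trp at 2.14 and trpl at 3.41, and the test among the 7 classes called 4 members in place of 9. The difference of contrasts called 1 to 2 members higher without single libraries. Genotypes of flies differed for 7 members, 3 with no filter on low counts and 1 to 8 without single libraries. Relations to ninaE passing by r were 10, and 16 with Arr2 in place of ninaE, norpA in 3-86 among them. Leaving out gamma control library 2 gave 4 genes called for training, no member among them. The cause of these changes was not tested. Depth limits the members near 0 in Kenyon cells, where a library's floor of 3 counts is 0.131 to 0.693 CPM.

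With the replicate number of the fly titles as a block, 2 members differed among fly genotypes in place of 7. Same-numbered fly libraries share only a number: of 79 same-numbered pairs 26 correlated above 0.1 (median -0.01), and 4 of 27 libraries correlated best with their own number. No paired analysis was possible because the labels do not say which control and trained neuron libraries form a pair.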
